A study of Rattus norvegicus with 12 samples.

Results

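The 41 genes described here carry the KEGG annotation Proteasome in the gene table, out of 22601 genes in all. The annotation held 44 genes, and Psmb8, Psmb9 and Psmb10, the 3 interferon-inducible catalytic subunits, were left out by the rule, so that the members are the constitutive subunits together with the activators, the regulator and the maturation factor that the annotation lists. Libraries were made from newly formed tissue in a distal femur defect of 8 weeks old Sprague Dawley rats, 2 weeks after surgery. The control group had a defect without a scaffold, and the hydrogel, PCL and β-TCP groups had received a 3D printed scaffold of GelMA hydrogel (a gelatin-based gel), polycaprolactone (a degradable polyester) or β-tricalcium phosphate (a ceramic). Each group had 3 libraries, 12 in all. The study's methods speak of independent samples, but no source used here states that each library is a separate rat, so a p-value here speaks to the spread among libraries, which may be technical.

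The proteasome is the large protease that degrades proteins tagged with ubiquitin. Its 20S core is a barrel of outer α rings and inner β rings, with the catalytic sites on 3 of the β subunits. The 19S cap has a base, whose ATPases unfold the substrate, and a lid, which removes the ubiquitin chain. Other caps (PA28, PA200) open the core without ubiquitin, and bone cells depend on the proteasome for the turnover of signalling proteins such as β-catenin and Runx2.

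The libraries held 15035925 to 17357830 fragments assigned to genes. Values are FPKM, a gene's fragments scaled by its exon length and by the library's total, so levels can be compared between genes. Osteoblast markers (the summed FPKM of 6 genes, among them Col1a1 and Bglap) lay between 4550 and 17400 in every library, and tissue labelled bone thus carried its defining transcripts. Control replicate 3 stood apart. It had the lowest summed erythroid markers (1130 FPKM against 4400 to 42000 in the other libraries), the lowest summed neutrophil markers (38.7 against 804 to 5290) and the highest summed cartilage markers (10500 against 44.4 to 1610). β-TCP replicates 2 and 3 were very alike in these lists (erythroid 4400 and 4570, neutrophil 815 and 804). These are whole tissues, in which fewer cells of a type and less RNA per cell cannot be told apart.

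Many proteasome genes are known to be served by the factor Nfe2l1 through antioxidant response elements, and their promoters often hold CCAAT boxes and Ets sites. The RefSeq promoter table (GRCr8, 300 bases around the gene start, most of them before it) matched 36 of the 41 members by gene identifier. TGACNNNGC, a short form of the antioxidant response element, was found on either strand in 8 of the 36 (22.2%), compared with 12.2% of all 27457 promoters and 14.7% of the 10165 promoters of genes tested below. CCAAT was found in 17 (47.2%, compared with 37.7% and 38.0%). CCGGAAG, an Ets core, was found in 15 (41.7%, compared with 9.22% and 17.7%). A CCAAT match overlapped a TGACNNNGC match in 1 member, Psmb2. A match describes the letters of the window and is not a measured site. The 4 promoters printed below belong to members on which the results turn: Psma3 and Psmb6, core subunits with an antioxidant response match, Psmd7, the steadiest member, and Psmf1, the member with the widest range among those without a read-sharing copy. Capitals mark any match of the 3 motifs on either strand.

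Psma3 promoter, chr6:95219499-95219798, + strand: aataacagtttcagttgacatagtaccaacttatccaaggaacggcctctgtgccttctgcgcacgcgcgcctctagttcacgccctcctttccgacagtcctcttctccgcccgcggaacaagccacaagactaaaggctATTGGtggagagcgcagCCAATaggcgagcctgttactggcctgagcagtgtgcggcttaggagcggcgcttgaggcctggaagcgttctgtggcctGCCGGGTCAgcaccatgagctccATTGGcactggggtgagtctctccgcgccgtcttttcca
Psmb6 promoter, chr10:55737638-55737937, + strand: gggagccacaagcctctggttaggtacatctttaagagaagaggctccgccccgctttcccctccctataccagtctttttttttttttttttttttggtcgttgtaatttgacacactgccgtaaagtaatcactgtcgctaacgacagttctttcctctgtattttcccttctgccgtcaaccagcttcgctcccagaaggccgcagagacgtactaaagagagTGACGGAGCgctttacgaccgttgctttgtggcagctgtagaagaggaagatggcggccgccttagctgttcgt
Psmd7 promoter, chr19:52411267-52411566, - strand: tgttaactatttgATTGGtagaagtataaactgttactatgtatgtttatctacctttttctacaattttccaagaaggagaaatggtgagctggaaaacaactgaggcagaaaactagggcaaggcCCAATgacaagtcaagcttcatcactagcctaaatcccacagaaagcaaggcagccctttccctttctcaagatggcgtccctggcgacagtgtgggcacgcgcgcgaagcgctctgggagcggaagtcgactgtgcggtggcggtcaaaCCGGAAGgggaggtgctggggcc
Psmf1 promoter, chr3:160720866-160721165, - strand: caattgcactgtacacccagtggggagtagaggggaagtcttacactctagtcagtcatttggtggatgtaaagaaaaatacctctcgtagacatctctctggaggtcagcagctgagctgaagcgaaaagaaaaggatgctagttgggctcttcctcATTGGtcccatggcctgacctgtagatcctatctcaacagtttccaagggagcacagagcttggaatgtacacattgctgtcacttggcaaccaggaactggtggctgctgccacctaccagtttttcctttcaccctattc

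In the Psmb6 promoter the antioxidant response match began 24 bases before the gene start, and in the Psma3 promoter 12 bases before it, on the reverse strand. Neither Psmd7 nor Psmf1 held such a match in this window. Psma3 and Psmb6 had their highest mean in the β-TCP group, but the other 6 members with a match (Adrm1, Psmb2, Psmb5, Psmd1, Psmd3 and Psme4) had a β-TCP mean under those of the hydrogel and PCL groups, and Psma4 and Psme2 had the highest mean in the β-TCP group without one.

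Of the 41 members, 38 were expressed at 1 FPKM or more in at least 3 libraries and were tested. The other 3 were Ifng, a cytokine that the KEGG map includes, Psma8, the testis α subunit, and Psmb11, the thymus β subunit. Each of the 3 stayed at or under 0.125 FPKM in every library. Apart from Pomp, the 37 other tested members were deeply covered, with 317 to 7191 fragments in a library, so that counting error alone was 5.62% at the lowest count and 1.18% at the highest.

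The α ring genes, whose products form the gate of the core, had mean levels from 44.1 FPKM (Psma3) to 145 FPKM (Psma7) among the 7 tested. Psma7 was at 136, 134 and 112 FPKM in control, 160, 158 and 161 in hydrogel, 141, 143 and 177 in PCL and 146, 136 and 140 in β-TCP libraries. All libraries of the 3 scaffold groups were above the control libraries, with β-TCP replicate 2 only just so. Psma5 was at 62.6, 75.6 and 54.5 FPKM in control, 78.5, 79.9 and 84.7 in hydrogel, 80.1, 85.4 and 104 in PCL and 75.0, 75.1 and 77.9 in β-TCP libraries. It had the widest spread of group means in the α ring, and PCL replicate 3 was its highest library. Psma3 was at 37.5, 41.2 and 36.6 FPKM in control, 43.2, 44.8 and 45.8 in hydrogel, 44.7, 44.3 and 46.7 in PCL and 47.8, 49.2 and 47.6 in β-TCP libraries. Unlike Psma7 and Psma5, Psma3 was highest in the β-TCP libraries, which did not overlap those of any other group.

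The β ring genes had mean levels from 69.5 FPKM (Psmb2) to 133 FPKM (Psmb4) among the 7 tested. Psmb4, a structural β subunit, was at 115, 127 and 97.7 FPKM in control, 136, 143 and 148 in hydrogel, 134, 132 and 155 in PCL and 132, 136 and 136 in β-TCP libraries. The 9 scaffold libraries were all above the 3 control libraries. Psmb2, also structural, was at 63.0, 63.9 and 56.6 FPKM in control, 75.9, 77.6 and 83.1 in hydrogel, 65.4, 67.0 and 81.1 in PCL and 67.6, 63.1 and 70.0 in β-TCP libraries. The hydrogel libraries of Psmb2 were above all control and β-TCP libraries and overlapped the PCL group through PCL replicate 3. The catalytic subunit Psmb5, which has the chymotrypsin-like site, lay between 66.2 and 91.0 FPKM, Psmb6, with the caspase-like site, between 67.1 and 89.4 FPKM, and Psmb7, with the trypsin-like site, between 54.0 and 88.6 FPKM. The geometric mean of the tested β ring genes over that of the tested α ring genes stayed between 0.976 and 1.05 in the 12 libraries. By this measure the rings kept an almost fixed proportion.

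The 6 ATPases of the base, which unfold the substrate and thread it into the core, had mean levels from 34.6 FPKM (Psmc6) to 82.9 FPKM (Psmc3). Psmc4, which had the widest spread of group means among them, was at 63.5, 73.1 and 49.2 FPKM in control, 81.1, 68.8 and 79.5 in hydrogel, 71.9, 73.5 and 89.5 in PCL and 67.9, 60.02 and 62.0 in β-TCP libraries. The PCL and hydrogel libraries were above those of the β-TCP group, and control replicates 1 and 2 lay within the range of the other groups. Psmc3 varied less, from 71.2 to 91.3 FPKM, and Psmc6 lay between 28.4 and 42.4 FPKM.

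Of the 4 base genes without ATPase activity, the scaffold subunit Psmd2 was highest on average, with 60.4 to 88.2 FPKM, and the ubiquitin receptor Adrm1 lowest, with 33.8 to 53.1 FPKM. Psmd1, the other large scaffold subunit, was at 48.0, 57.4 and 40.4 FPKM in control, 53.3, 50.4 and 57.9 in hydrogel, 56.9, 55.9 and 65.3 in PCL and 50.1, 47.0 and 48.6 in β-TCP libraries. The PCL and hydrogel libraries of Psmd1 were each above all β-TCP libraries, and control replicate 2 lay among the PCL libraries.

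The 8 lid genes had mean levels from 27.8 FPKM (Psmd11) to 64.4 FPKM (Psmd13). Psmd14, the deubiquitinase of the lid, lay between 27.9 and 50.7 FPKM. Psmd8, with the widest spread of group means in the lid, was at 50.9, 51.6 and 40.7 FPKM in control, 59.4, 55.8 and 59.7 in hydrogel, 56.1, 59.9 and 69.1 in PCL and 56.3, 49.5 and 49.9 in β-TCP libraries. The hydrogel and PCL libraries were all above the control libraries. Psmd7, the partner of Psmd14, was at 53.4, 54.0 and 56.8 FPKM in control, 53.0, 55.8 and 54.9 in hydrogel, 55.7, 57.0 and 59.3 in PCL and 52.8, 49.97 and 51.4 in β-TCP libraries. Psmd7 was the steadiest of the members, and control replicate 3, the lowest library for 35 of the 38 tested members, was its third-highest library.

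Among the activators, Psme1 and Psme2, which encode the PA28α and PA28β subunits of the interferon-inducible cap, stood apart in control replicate 3. Psme1 was at 140, 137 and 68.5 FPKM in control, 149, 159 and 158 in hydrogel, 141, 140 and 146 in PCL and 155, 136 and 133 in β-TCP libraries. Psme2 was at 55.3, 58.2 and 34.2 FPKM in control, 58.2, 64.0 and 65.7 in hydrogel, 57.6, 55.8 and 53.0 in PCL and 63.9, 64.8 and 66.3 in β-TCP libraries. Outside control replicate 3, the 11 other libraries of either gene lay close together. Psme3, which encodes the nuclear PA28γ cap, was at 38.5, 45.9 and 27.5 FPKM in control, 45.1, 42.3 and 58.0 in hydrogel, 44.6, 38.9 and 45.0 in PCL and 35.3, 33.4 and 32.7 in β-TCP libraries. All 3 β-TCP libraries were under all hydrogel and PCL libraries. Psme4, which encodes PA200, lay between 29.6 and 58.8 FPKM, with PCL replicate 3 highest and control replicate 3 lowest.

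Psmf1, which encodes the proteasome-binding regulator PI31, varied most among the members without a copy. It was at 33.6, 45.1 and 12.4 FPKM in control, 51.6, 33.6 and 50.9 in hydrogel, 40.2, 49.7 and 77.2 in PCL and 27.6, 21.0 and 18.2 in β-TCP libraries. All 3 β-TCP libraries were under all hydrogel and PCL libraries, and the control group spanned the β-TCP range and beyond.

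Pomp, the maturation factor that helps the β ring assemble, was listed at 1.196 to 5.03 FPKM in 11 libraries and at 15.3 FPKM in hydrogel replicate 1. A near-identical gene model, LOC100911238, was listed at 10.2 to 17.9 FPKM except for 43.3 FPKM in β-TCP replicate 2. Reads of the pair may have been split between both models, so the Pomp values are uncertain. The same holds to a smaller degree for Psmb6 and Psmd12, whose copies LOC100360846 and LOC102552889 were at 3.88 FPKM or less and 0.461 FPKM or less.

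**Figure D1:**
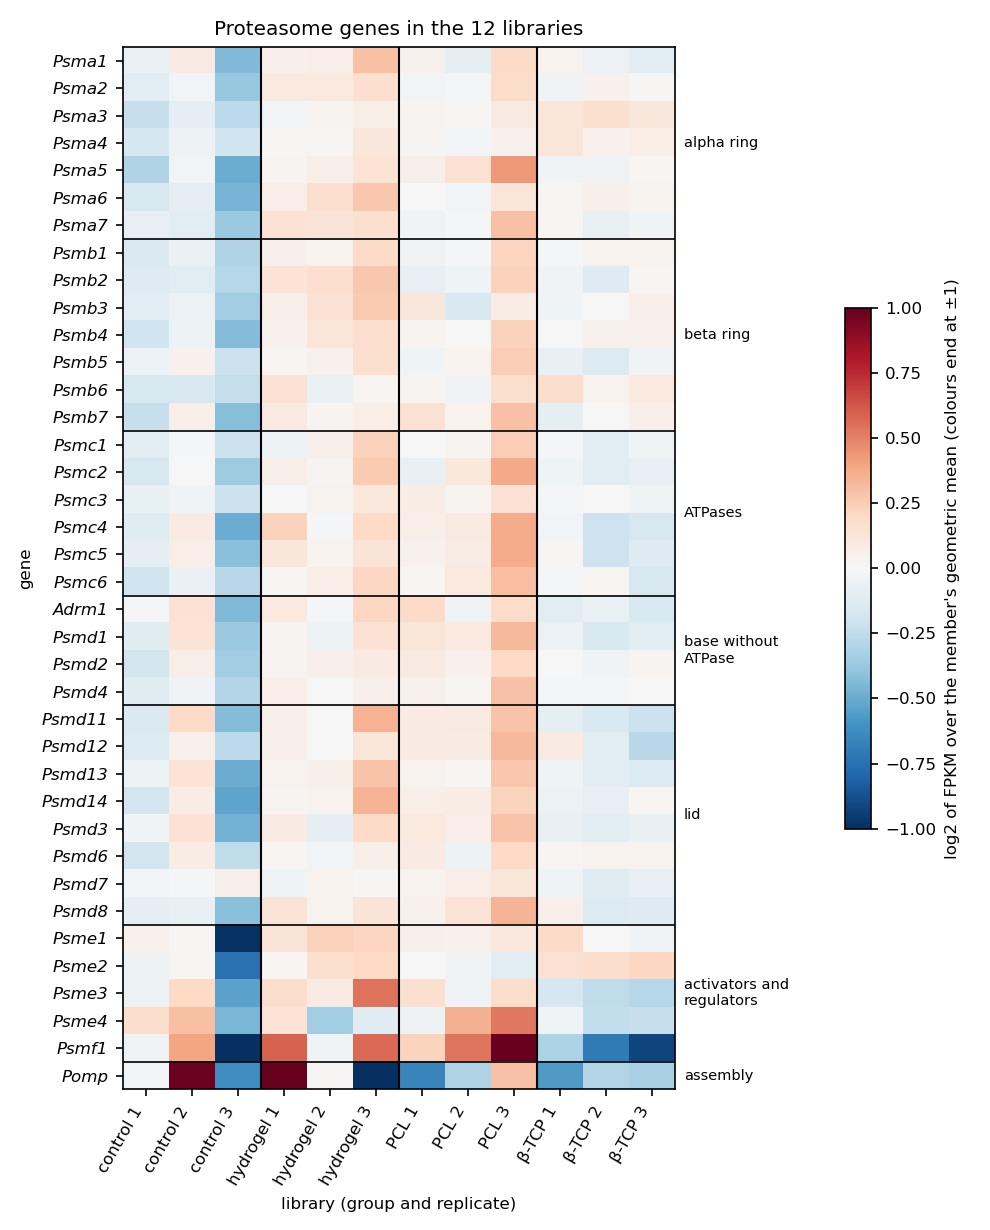
Heat map of the 38 tested members (rows, by role) in the 12 libraries (columns), coloured by the log2 of FPKM over the member's geometric mean. Control replicate 3 is the bluest column, being the lowest library for 35 members, and PCL replicate 3 is the reddest, being the highest for 23, while Psmd7 is nearly white across its row.

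Most members had their extremes in the same few libraries. Control replicate 3 was the lowest library for 35 of 38, PCL replicate 3 the highest for 23 and hydrogel replicate 3 the highest for 9. No such counts over all genes are given here. The median member level ran from 54.5 FPKM in control replicate 3 to 86.7 FPKM in PCL replicate 3. The SD of log2(FPKM + 1) over the 12 libraries had a median of 0.18 over the members and 0.27 over all 12633 genes tested. After each library was set to its own median over the members, the median SD of log2 FPKM over the 37 members without Pomp went from 0.18 to 0.09, and 34 of the 37 had a smaller SD. Of these, 24 varied by an SD under 0.1 around the library's own level, the steadiest being Psmc2 (0.05) and Psmd4 (0.06). Only Psme1 (0.23), Psme2 (0.23), Psme4 (0.24) and Psmf1 (0.61) varied by more than 0.2, and these are activators or regulators rather than subunits of the core or the 19S cap. The other 3 had a larger SD, Psmd7 (from 0.07 to 0.16), Psma4 (from 0.10 to 0.13) and Psma3 (from 0.13 to 0.14). The library median was taken over these same 37 members, so a fall in SD is in part built in. The SDs are descriptions and were not tested.

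Ratios within a library are free of its overall level. Sets of genes were compared by their geometric mean FPKM. That of the 18 19S genes over that of the 14 20S genes was 0.626, 0.652 and 0.609 in control, 0.603, 0.583 and 0.611 in hydrogel, 0.626, 0.639 and 0.639 in PCL and 0.594, 0.573 and 0.560 in β-TCP libraries. The PCL libraries were above all hydrogel and all β-TCP libraries, and the β-TCP group (0.576 ± 0.017, SD, n = 3) was under the control group (0.629 ± 0.021, SD, n = 3) without overlap. The ATPases over the 20S genes were at 0.665 to 0.713 in the β-TCP group and 0.727 to 0.781 in the PCL group, but there the hydrogel group (0.707 to 0.739) overlapped both. Psme1 and Psme2 over the 20S genes stood at 0.688 in control replicate 3 and between 0.856 and 1.10 in the others. The inducible subunits that replace the constitutive catalytic subunits were also scarce in that library relative to their partners, with Psmb8 over Psmb5 at 0.156 (0.321 to 0.719 elsewhere), Psmb9 over Psmb6 at 0.122 (0.406 to 0.709 elsewhere) and Psmb10 over Psmb7 at 0.366 (0.445 to 0.705 elsewhere). These ratios are descriptions and were not tested.

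**Figure D2:**
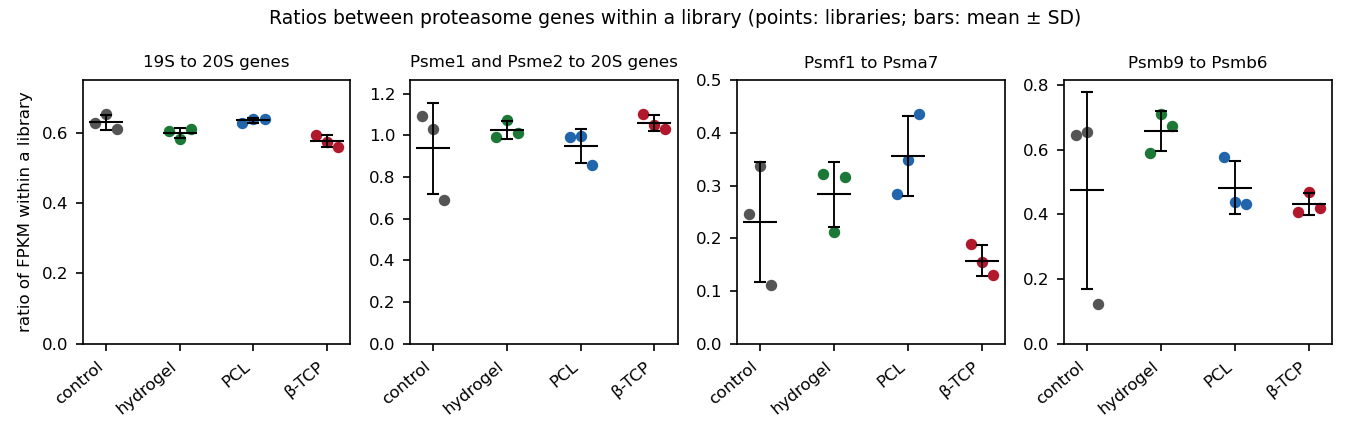
Ratios of FPKM within a library (vertical axes, from 0) for the 4 groups, with points for libraries and bars for mean ± SD. The ratio of 19S to 20S genes spans only 0.560 to 0.652, while control replicate 3 lies far under the other control libraries in the ratio of Psme1 and Psme2 to 20S genes (0.688) and of Psmb9 to Psmb6 (0.122).

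The first question of the design was whether a scaffold changed the tissue relative to an empty defect. Differences were tested with limma on log2(FPKM + 1), on which the change of low genes is understated, with p-values adjusted by Benjamini-Hochberg over all 12633 genes. No member passed an adjusted p of 0.05 in any scaffold group against the control group, with limma or with limma-voom on the recovered fragments. The share of all genes that passed with limma was 0.00792%, 0.277% and 4.78% in the 3 comparisons. With the very alike β-TCP replicates 2 and 3 averaged, the share in the β-TCP comparison was 0.0871%, and no member passed there either. At an unadjusted p under 0.05, limma found 15 of 38 members in the hydrogel comparison (all genes 15.0%), 18 in the PCL comparison (all genes 18.4%) and 6 in the β-TCP comparison (all genes 18.0%). In the same order limma-voom found 13, 15 and 5 (all genes 15.0%, 18.4% and 17.6%). These counts depended on the scaling and the fit. With median-of-ratios scaling limma found 2, 10 and 2 (all genes 13.7%, 19.7% and 18.2%). With quantile normalization it found 7, 4 and 2 (all genes 13.8%, 18.8% and 18.2%). Fits of only the 2 groups gave 3, 1 and 2 (all genes 4.79%, 8.58% and 14.7%). All of the 15, 18 and 6 had positive log2 differences. With an unadjusted p under 0.05 and a fold change over 2 or under 0.5, the threshold of the study's methods, 0 of 38 members passed, compared with 2.29%, 3.64% and 3.51% of all genes.

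In the hydrogel group against the control group, the members' median log2 difference was 0.26, compared with 0.14 over all genes, and 36 of 38 were above 0 (67.3% of all genes were). In the PCL group it was 0.26 compared with 0.04, with 37 of 38 above 0 (55.4% of all genes). In the β-TCP group it was 0.12 compared with 0.03, with 30 of 38 above 0 (54.2% of all genes). All 3 medians depended on the scaling. In the same order they were 0.14, 0.12 and 0.0041 after quantile normalization, with 35, 36 and 20 members above 0. After median-of-ratios scaling they were 0.12, 0.24 and 0.06, with 35, 37 and 23 above 0. Values over all genes with these scalings are not given here. The median SE of a member's difference was 0.12. The 3 comparisons share the control libraries, and so the low control replicate 3 enters each of them.

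Without control replicate 3 the medians were 0.15, 0.16 and 0.02 (over all genes 0.03, −0.06 and −0.04), with 37, 36 and 23 members above 0. At an unadjusted p under 0.05 there were then 5, 4 and 6 members, compared with 6.25%, 16.8% and 34.1% of all genes, and the 6 in the β-TCP comparison held 4 higher and 2 lower members. The lower ones were Psmf1 (log2 difference −0.80) and Psme4, neither of which was counted with all libraries. Without PCL replicate 3, the PCL median was 0.19. Over all libraries left out in turn, the count at an unadjusted p under 0.05 in the hydrogel comparison ran from 4 (without hydrogel replicate 3, all genes 5.57%) to 27 (without control replicate 2, all genes 39.2%). In the PCL comparison it ran from 3 (without PCL replicate 3, all genes 9.35%) to 28 (without control replicate 2, all genes 29.1%). In the β-TCP comparison it ran from 2 (without β-TCP replicate 1 or 3, all genes 16.9% and 12.3%) to 11 (without control replicate 2, all genes 17.7%).

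By role, the medians differed between the rings, the 19S classes and the activators. The median over the α ring was 0.29 for hydrogel, 0.23 for PCL and 0.22 for β-TCP, and in the same order over the β ring 0.26, 0.22 and 0.18. For the ATPases it was 0.25, 0.31 and 0.07, for the other base genes 0.19, 0.26 and 0.07, and for the lid 0.21, 0.27 and 0.03. The 5 activators and regulators had 0.39, 0.27 and −0.11. The 19S classes thus lay lower in the β-TCP group than the rings did, which is the ratio described above in another form.

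In the hydrogel comparison the lowest member p belonged to Psma6, with a log2 difference of 0.40 (SE 0.11, adjusted p = 0.312). In the PCL comparison it belonged to Psma5, with 0.48 (SE 0.13, adjusted p = 0.147). In the β-TCP comparison it belonged to Psma3, with 0.32 (SE 0.08, adjusted p = 0.0559, limma). Psma3 was the member nearest to the threshold. Its adjusted p was 0.0377 without a filter on low genes, 0.0466 with a mean of at least 5 FPKM, and 0.0488 without control replicate 3, and with median-of-ratios scaling it was 0.215.

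**Figure D3:**
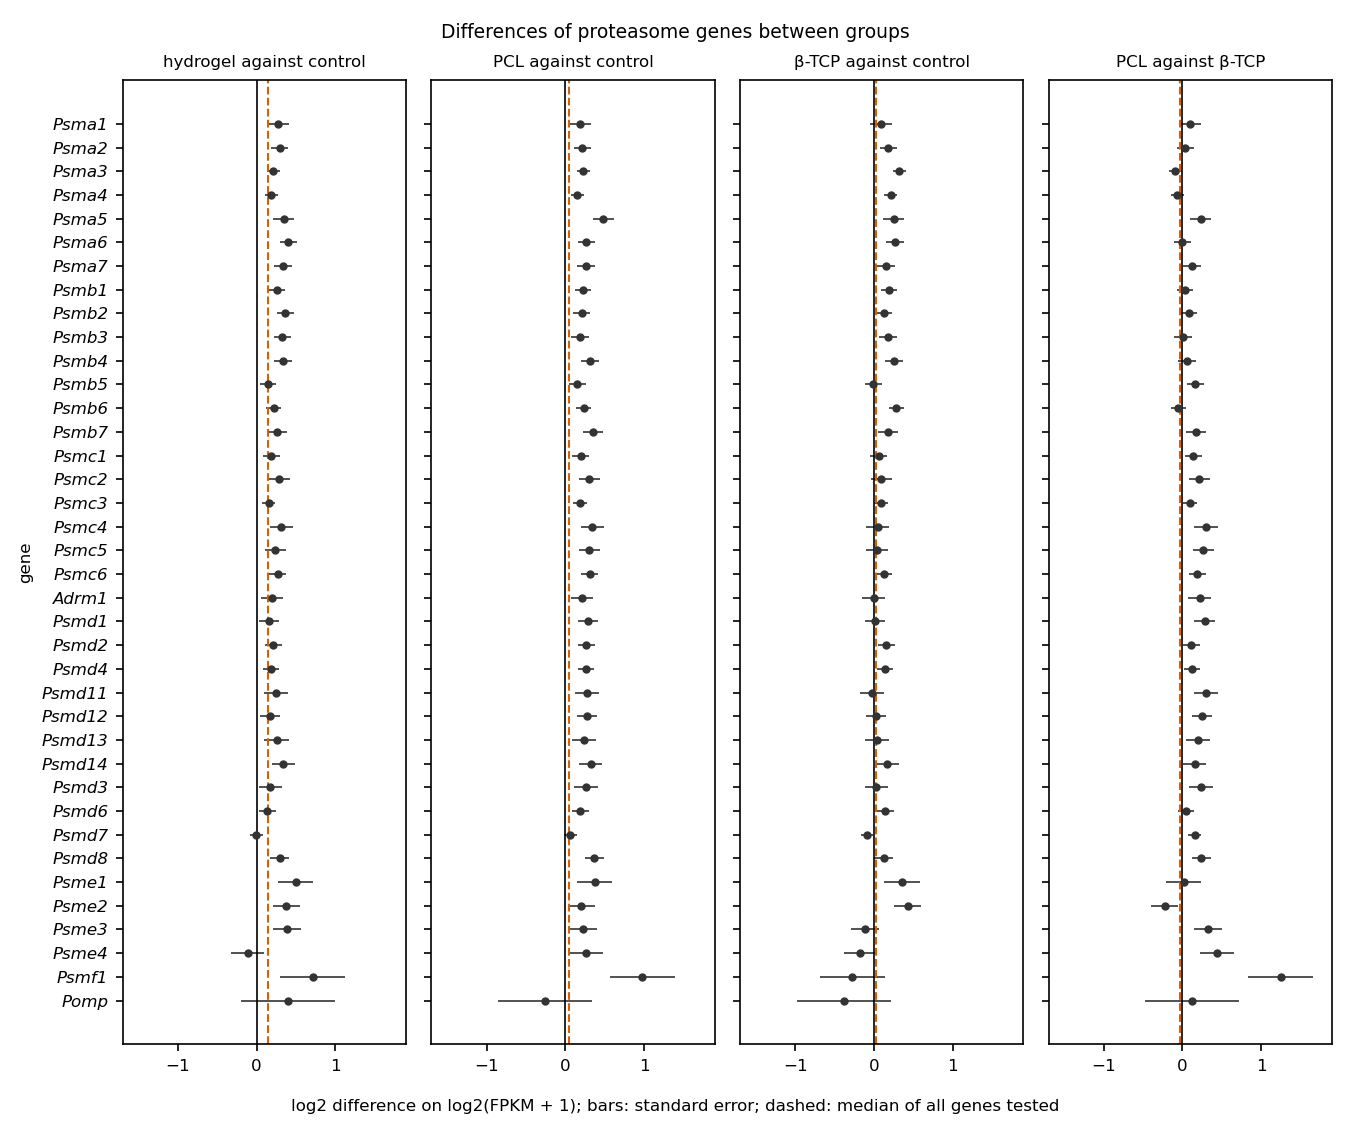
Log2 differences (points, on log2(FPKM + 1)) with standard errors (bars) of the 38 tested members in 4 comparisons, with a dashed line at the median of all genes tested. Most points lie right of the dashed line in the hydrogel and PCL comparisons with the control group, where the members' medians were both 0.26, and Psmf1 stands out at 1.25 between the PCL and β-TCP groups.

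Counted by libraries that do not overlap, 18 of 38 members were higher in all 3 hydrogel libraries than in all 3 control libraries, compared with 9.15% of all genes. For the PCL group the count was 16 of 38, compared with 10.3%, and for the β-TCP group 10 of 38, compared with 17.9%. The share in the β-TCP group was 26.3%, nearer to that of all genes.

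The second question was whether the scaffolds differed from each other. Against the hydrogel group, no member passed an adjusted p of 0.05 in the PCL group (0.103% of all genes did) or in the β-TCP group (6.13%), and none passed between the PCL and β-TCP groups (0.657%), with limma or limma-voom. With β-TCP replicates 2 and 3 averaged, the shares of all genes in the last 2 comparisons were 0.127% and 0.0158%, and no member passed there either. At an unadjusted p under 0.05 there were 0, 2 and 1 members with limma (all genes 8.23%, 34.4% and 22.4%), and 0, 2 and 1 with limma-voom (all genes 8.24%, 33.1% and 21.8%). With median-of-ratios scaling limma gave 1, 2 and 10 (all genes 10.1%, 36.8% and 24.4%). With quantile normalization it gave 1, 6 and 9 (all genes 10.4%, 37.8% and 25.3%). Without control replicate 3, 12 members were higher and 1 lower in the PCL group against the β-TCP group (all genes 35.1%). With the fold threshold added there were 0, 0 and 1 members (all genes 0.768%, 8.38% and 4.48%). The F test of the 4 groups gave 0 members at an adjusted p under 0.05 (2.98% of all genes) and 7 at an unadjusted p under 0.05 (27.0% of all genes). With limma-voom the F test gave 0 and 5 members, for which no share of all genes is given here.

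The median log2 difference of the members was 0.02 in the PCL group against the hydrogel group (all genes −0.06), −0.14 in the β-TCP group against the hydrogel group (all genes −0.06) and 0.15 in the PCL group against the β-TCP group (all genes −0.04). Members above 0 numbered 23, 5 and 33 of 38, compared with 39.0%, 44.9% and 45.5% of all genes. With median-of-ratios scaling the first median was 0.13 with 31 members above 0 and the second −0.08 with 9 above 0. Without PCL replicate 3 the first median was −0.05 with 10 members above 0, and the last 0.07 with 25 above 0. Without overlap of the libraries, 20 of 38 members were lower in the β-TCP group than in the hydrogel group, compared with 34.5% of all genes. For the PCL group above the β-TCP group the count was 16, compared with 21.7%. For the PCL group above the hydrogel group it was 0, compared with 5.09%, and for the PCL group under the hydrogel group it was 2 (Psme1 and Psme2), compared with 15.4%. Going the other way, Psma3, Psma4 and Psme2 were higher in all β-TCP libraries than in all PCL libraries, 3 of 38 compared with 23.2% of all genes.

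Psmf1 was the member past the fold threshold, with a log2 difference of 1.25 (SE 0.41, adjusted p = 0.147, limma) in the PCL group against the β-TCP group. In the β-TCP group against the hydrogel group its difference was −0.99 (SE 0.41, adjusted p = 0.126). Both values depended on single libraries. Without control replicate 3 the SE was 0.26 and the adjusted p 0.0244 and 0.0178, while the number of all genes called went from 83 to 1912 and from 775 to 4736. Without PCL replicate 3 the first difference was 0.99 and no longer past the fold threshold (adjusted p = 0.531).

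Psme3 had the lowest p in the β-TCP group against the hydrogel group, with a log2 difference of −0.49 (SE 0.18, adjusted p = 0.0938, limma). Its adjusted p was 0.0159 without control replicate 3, 0.0479 with quantile normalization and 0.0312 in a fit of only those groups. Other settings raised it, to 0.248 with β-TCP replicates 2 and 3 averaged, 0.329 without hydrogel replicate 3 and 0.1025 with limma-voom. In the PCL group against the hydrogel group the lowest adjusted p was that of Psme4 (0.38, SE 0.21, adjusted p = 0.63).

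Because PCL replicate 3 and control replicate 3 were also the ends of the erythroid range, each member was set beside the share of fragments in globin genes, a measure of blood and erythroid cells in the tissue. That share was 2.06%, 3.49% and 0.215% in control, 4.68%, 2.38% and 4.90% in hydrogel, 2.61%, 4.35% and 7.63% in PCL and 1.76%, 0.842% and 0.797% in β-TCP libraries. Psmf1 followed it almost in rank order over the 12 libraries (Pearson r = 0.937, permutation p = 1e-05, adjusted p = 0.00056, and Spearman rho = 0.993, permutation p = 1e-05, adjusted p = 0.00023). The p-values are two-sided, from 100000 permutations, of which 1e-05 is the smallest they can give, and they were adjusted over all 12633 genes. Without the 2 libraries farthest from the median share (hydrogel and PCL replicate 3), r was 0.949, and with the group means removed it was 0.86. Groups of 3 libraries are too small for a value within each group. The share was chosen because its extreme libraries matched those of the members, and it differed between the groups. The permutation p-values here and below therefore describe these 12 libraries and are not independent evidence of a relation.

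The ATPases Psmc4 (r = 0.922, rho = 0.979, adjusted p = 0.00094 and 0.00023 by permutation) and Psmc5 (r = 0.915, rho = 0.986, adjusted p = 0.00079 and 0.00023 by permutation) were next to it by rank. All 38 members had a positive r, compared with 52.1% of all genes, and the median r was 0.737 compared with 0.0509. Positive and with both adjusted p-values under 0.05 were 23 of 38 members, compared with 16.5% of all genes. The weakest relations were those of Psme2 (r = 0.136, rho = −0.119, adjusted p = 0.76 and 0.79 by permutation) and Psma3 (r = 0.193, rho = −0.049, adjusted p = 0.65 and 0.92 by permutation), whose rank correlation was under 0. Psma4, Pomp, Psmb6, Psmb3, Psme1, Psma6 and Psmd7 followed, with r from 0.278 to 0.574. Without the 2 farthest libraries the members' median r was 0.595, and with group means removed 0.752. The points share library, depth and the total by which FPKM is scaled. With the erythroid list and all globins taken out of the total, the members' medians against the control group were 0.29 (hydrogel), 0.31 (PCL) and 0.11 (β-TCP). The part of erythroid cells in the members' differences was not tested, and the neutrophil, B cell and cycling markers were likewise lowest in control replicate 3.

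**Figure D4:**
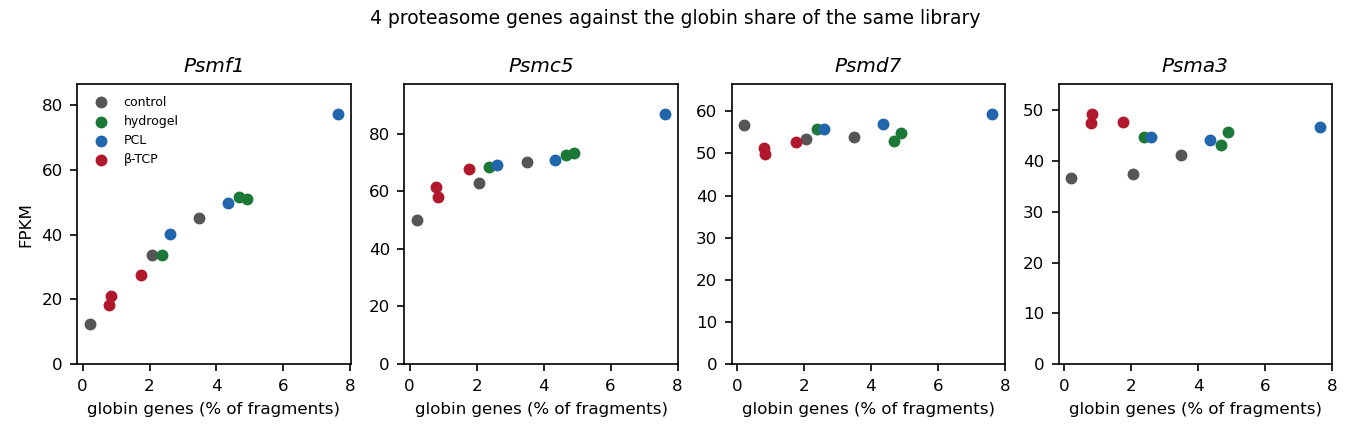
FPKM (vertical axis, from 0) of 4 members against the percent of a library's fragments in globin genes (horizontal axis), with 1 point per library coloured by group. Psmf1 climbs from 12.4 to 77.2 FPKM and Psmc5 from 50.1 to 86.7 FPKM along the axis, while Psmd7 stays between 49.97 and 59.3 FPKM and the β-TCP libraries of Psma3 lie above the others.

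Genes that work with the proteasome were described from 5 lists with 28 symbols, of which 27 were tested. In the comparisons of a scaffold with the control group, none of the 27 passed an adjusted p of 0.05 with limma. Between scaffolds, 1 of the 27 did, higher in the β-TCP group than in the hydrogel group. In that comparison 6.13% of all genes passed in either direction, a share that 1 of 27 does not exceed. The gene was Nfe2l1, the factor that drives proteasome genes when proteasome activity is short. It was at 30.2, 26.9 and 30.4 FPKM in control, 24.6, 27.9 and 22.2 in hydrogel, 36.2, 28.7 and 27.0 in PCL and 35.7, 39.0 and 39.0 in β-TCP libraries. Nfe2l1 rose by 0.59 on the log2 scale in the β-TCP group against the hydrogel group (SE 0.13, adjusted p = 0.0284, limma), without overlap of the libraries. The adjusted p was 0.0315 with limma-voom, but 0.0821 without hydrogel replicate 1, 0.129 without hydrogel replicate 3, 0.127 without β-TCP replicate 2, 0.131 without β-TCP replicate 3 and 0.129 with these 2 β-TCP libraries averaged. Summed osteoclast markers moved with it, at 9250 to 9430 FPKM in the β-TCP group and 2240 to 5080 FPKM in the hydrogel group, as did summed macrophage markers, at 779 to 990 FPKM and 324 to 539 FPKM. Their part in the Nfe2l1 difference was not tested. In the same comparison only 5 of 38 members were above 0. The related factor Nfe2l2 differed by 0.32 there (SE 0.15, adjusted p = 0.145).

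The other 4 lists had no gene past the threshold. The 7 assembly chaperones, the Psmg genes among them, had medians relative to control of 0.24 for hydrogel, 0.22 for PCL and 0.15 for β-TCP, and in the same order the proteasome-bound deubiquitinases Usp14 and Uchl5 had 0.37, 0.38 and 0.02. The 8 ubiquitin shuttles and unfolding factors, with Vcp the highest at 108 to 136 FPKM and Rad23b next at 80.6 to 95.6 FPKM, had 0.15, 0.15 and 0.02. The 6 genes of ubiquitin and its activation, with Ubb the highest at 487 to 968 FPKM, had 0.28, 0.27 and −0.07.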

How the data were processed

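Poly(A) RNA of newly formed tissue was sequenced as paired ends. The labels name the mirVana and TruSeq Stranded kits and HiSeq instruments, the paper's methods Trizol, a VAHTS kit and a NovaSeq instrument. Per the submitters' processing notes, tools included Trimmomatic, HISAT2, Cufflinks and HTSeq on the Rnor_6.0 build (versions not given in the sources used here), and the authors deposited FPKM per gene, computed with Cufflinks according to the methods. Of the table, 3 columns that match no sample here were not used.

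Groups came from the labels. FPKM were analysed as log2(FPKM + 1) with limma 3.58.1 (R 4.3.3), 1 fit of all 12 libraries with a trend on the mean, for the 12633 of 22601 genes that reached 1 FPKM in 3 or more libraries. P-values were two-sided and adjusted by Benjamini-Hochberg over all genes. The scripts were tested on simulated data. Whole fragments were recovered from the steps of the FPKM for 18684 of 18684 genes above 0 (100%, tolerance 0.01) and used for limma-voom and for depth. Intervals from them cover counting error only. Permutation tests and tables used Python 3.11.15, pandas 2.3.3 and scipy 1.17.1. Promoters are RefSeq, GRCr8.

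Members and gene lists were chosen with earlier results of these data known. Named members are those at an adjusted p under 0.05 and, in each role, those with the highest mean, the lowest mean and the widest spread of group means. Other members are named where a result turns on them, after their values were seen. In the partner lists, genes past the threshold or otherwise the 2 with the highest mean are named. A few values of these lists are not reported here. Of 130 list symbols, 126 matched by name, 2 by synonym and 2 were not matched. Alternatives covered the pseudocount, filter, scaling, replicate block, fits of 2 groups, trend, averaging of β-TCP replicates 2 and 3, limma-voom and leaving out each library. The total without erythroid and globin genes was added after seeing the data.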

Additional observations from a re-analysis of the deposited data

Results flagged for a closer look

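Each result here was picked out because every library of one scaffold group lay on one side of the control mean and every library of the other scaffold group on the opposite side. Psmd7, a lid subunit, was above the control mean in all 3 PCL libraries and under it in all 3 β-TCP libraries, and differed by 0.1547 on the log2 scale between these groups (SE 0.08, adjusted p = 0.27, limma). Psme3, which encodes PA28γ, was above the control mean in all hydrogel and all PCL libraries and under it in all β-TCP libraries. Its log2 difference was −0.4947 in the β-TCP group against the hydrogel group (SE 0.18, adjusted p = 0.0938) and 0.33 in the PCL group against the β-TCP group (SE 0.18, adjusted p = 0.289). The control mean of Psme3 rests in part on control replicate 3, its lowest library at 27.5 FPKM.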

How the results depend on the processing

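Numbers of members are given throughout. At an adjusted p under 0.05, β-TCP against control had 0, but 1 (Psma3) without a filter and 1 with a mean of at least 5 FPKM (all genes 4.78%, then 2.86% and 6.05%). β-TCP against hydrogel had 0, but 1 (Psme3) with quantile normalization and 2 (Psme3, Psmf1) in a fit of only the 2 groups (all genes 6.13%, then 12.2% and 33.6%), as had PCL against β-TCP (2, Psme3 and Psmf1, all genes 0.657%, then 17.3%). Past the fold threshold, PCL against control and β-TCP against hydrogel each had 0, but 1 with a pseudocount of 0.1, with limma-voom and, as an alternative added after seeing the data, without erythroid and globin genes in the total. Of all genes, 3.64% passed it for PCL against control, then 4.98%, 5.4% and 3.91%, and 8.38% for β-TCP against hydrogel, then 10.8%, 10.7% and 8.6%. β-TCP against hydrogel also had 1 without the erythroid list alone (all genes 8.47%). The members' median for hydrogel against control was 0.12 with median-of-ratios scaling, and that for PCL against control 0.12 with quantile normalization. With these scalings the other medians moved within the spread of the library medians, among them β-TCP against control, at 0.0041 with quantile normalization. The cause was not tested.

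Leaving out each library in turn, the count at adjusted p ran from 0 to 1 in β-TCP against control, from 0 to 2 in β-TCP against hydrogel, from 0 to 1 in PCL against β-TCP and from 0 to 1 in the F test, in each case with the highest value without control replicate 3, where 10.7%, 37.5% and 15.1% of all genes passed in the first 3. No share of all genes is given here for the F test. The count past the fold threshold ran from 0 to 1 in hydrogel against control, PCL against control, PCL against hydrogel, β-TCP against hydrogel and PCL against β-TCP, the last at 0 without PCL replicate 3. In the same order, the share of all genes past it ran over 0.744% to 9.45%, 1.66% to 7.47%, 0.617% to 1.36%, 3.72% to 11.1% and 1.42% to 5.68%. Same-numbered libraries correlated over 0.1 in 4 of 18 pairs. The correlations are of deviations from means of 3 libraries, so this count cannot settle whether the numbers pair the samples. With the replicate number as a block, 0 members passed an adjusted p of 0.05 in hydrogel against control (median 0.26), and the block changed no other member count at adjusted p or past the fold threshold. At an unadjusted p under 0.05 the block gave 7, 7 and 3 members in the hydrogel, PCL and β-TCP comparisons with control (15, 18 and 6 without it). Of all genes, 10.2%, 14.3% and 16.2% passed with the block. In β-TCP against hydrogel the block gave 1 member (2 without it), compared with 28.5% of all genes. The adjusted p of Nfe2l1 in β-TCP against hydrogel was 0.0644 with the block (limma). Depth left a counting error of 1.18% to 5.62% per value outside Pomp.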
